A study of Mus musculus with 8 samples.

Results

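Imprinted genes are read from only the maternal or only the paternal chromosome, and many of them set how fast an embryo grows. Those followed here, 10 genes known from embryonic mesenchyme, were taken by name: Igf2, Igf2r, Grb10, Cdkn1c, Dlk1, Mest, Plagl1, Peg3, Ndn and H19. The names were matched to gene identifiers through an annotation, and the rule uses no measured value. All 10 were found among the 39017 identifiers of the count table, and all 10 were among the 18952 genes with enough counts to be tested.

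The study sequenced poly(A) RNA of mouse embryonic fibroblasts (MEFs), connective-tissue cells grown from E13.5 embryos. Control and Mettl3-knockout cells each gave unstressed total RNA and, after 30 min in 500 µM sodium arsenite, RNA of a centrifuged fraction rich in stress granules, which makes 4 groups with 2 biological replicates apiece. Mettl3 is the methyltransferase that makes N6-methyladenosine (m6A), the most common internal mark of mRNA. A tamoxifen-activated Cre removed it: cells took 500 nM 4-hydroxytamoxifen over 48 h, and the loss was checked after 7 days. Whether the controls were given tamoxifen, which promoter drives the Cre and how many embryos the cells came from are not stated in the labels. Stress granules are cytoplasmic bodies in which stalled mRNAs and RNA-binding proteins gather. Total RNA was unstressed and granule RNA was stressed, so a granule to total difference holds both the fraction and the stress. In such bulk samples, fewer cells of a type and less RNA per cell cannot be told apart.

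The growth genes fall into opposing roles. Igf2, expressed from the paternal copy, encodes a fetal growth factor, and the maternally expressed Igf2r encodes the receptor that takes up this factor and sends it to lysosomes. Grb10 and Cdkn1c, maternally expressed in most embryonic tissues, restrain growth, Grb10 as an adaptor that dampens insulin and IGF receptor signalling and Cdkn1c as an inhibitor of cyclin-dependent kinases. H19, a maternally expressed noncoding RNA next to Igf2, is the precursor of the microRNA miR-675.

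Because the knockout removes the m6A writer, a single GENCODE M21 transcript of each gene (GRCm38 build) was searched on its own strand for GGACT. This motif reads GGACU in RNA and is a common form of the m6A consensus. The transcript was the longest protein-coding one, or the longest of any kind where a gene had none. It is called the longest transcript below. A match is a description of the letters and not a methylated site, since m6A was not measured here. At least 1 match was present in 85.4% of the 18694 tested genes that have such a transcript, with a median of 1.02 per kb. H19 held 6 matches in 2286 bases, 2.63 per kb, at the 95th percentile of these genes. Dlk1 held 3, or 0.645 per kb, at the 29.7 percentile, Grb10 held 7, or 1.38 per kb, at the 68.8 percentile, and Plagl1 held 5, or 0.951 per kb, at the 46.1 percentile. Igf2r held 12, Peg3 9, Ndn 6, Igf2 2, Cdkn1c 2 and Mest 1. The coding-sequence matches of the 3 genes that changed in a comparison are shown here, each with 12 bases on either side and the 5 bases of the motif in capitals, and the coordinates are those of the motif.
Dlk1, exon 5, chr12:109458177-109458181, plus strand: gttctctggaaaGGACTgccagcacaagg
Plagl1, exon 6, chr10:13127535-13127539, plus strand: cacaggatgcaaGGACTtcctgtgtcagt
Grb10, exon 6, chr11:11951534-11951538, minus strand: atgacaacagctGGACTctggtggaacac
Grb10, exon 9, chr11:11945501-11945505, minus strand: actccaccaaggGGACTtcaaaagaaccc
Grb10, exon 15, chr11:11936792-11936796, minus strand: cagtgattcacaGGACTcagcattggttc

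Of the 6 matches in H19, 2 lay inside the hairpin of miR-675 (chr7:142577064-142577147, minus strand), on either side of the mature miR-675-5p. The first ended on the first base of the mature RNA and the other began directly after its last base. Both windows are shown with the mature sequence from RefSeq, whose capitals mark the seed, bases 2 to 8. The deposited poly(A) RNA counts do not measure the mature microRNA.
H19, exon 1, chr7:142577133-142577137, minus strand: actgcggcccagGGACTggtgcggaaagg
H19, exon 1, chr7:142577107-142577111, minus strand: agggcccacagtGGACTtggtacactgta
mmu-miR-675-5p, chr7:142577112-142577133, minus strand: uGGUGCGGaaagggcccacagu

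The libraries held between 67257220 and 123508539 counts, so that 3 counts corresponded to 0.0264 to 0.0441 CPM, the count relative to the effective size of its library. Mettl3 stood at 15.4 to 25.4 CPM in the 4 control libraries and 5.56 to 7.35 CPM in the 4 knockout libraries. The knockout total replicates differed from each other by more than 2-fold for 40.1% of the 10261 genes that averaged 5 CPM or more, against at most 2.33% in the other groups. Mitochondrial transcripts took 7.60% of the counts in knockout total replicate 1 and 6.16% and 8.81% in the knockout granule libraries, against at most 0.881% elsewhere. Called values of comparisons that include knockout total replicate 1 are therefore given with and without it. All 10 listed fibroblast markers averaged over 1 CPM, and their summed level ran from 3554 to 7736 CPM. Among 8 fetal liver markers 0 averaged over 1 CPM, and their sum ran from 1.56 to 2.62 CPM, with Alb at 0.0102 to 0.360 CPM. Blood cell markers summed to 58.4 to 103.5 CPM, endothelial markers to 6.35 to 20.5, skeletal muscle markers to 7.15 to 19.2, chondrocyte markers to 23.7 to 79.9, neural markers to 202.4 to 682.4 and epithelial markers to 51.6 to 719.3 CPM. The neural sum was mostly Nes, at 165.8 to 650.6 CPM. Tubb3 and Map2 averaged 16.0 and 15.3 CPM, and Sox2, Sox10 and Elavl3 each averaged under 1 CPM. The epithelial sum was mostly Krt18, and it was lowest in the knockout total libraries (51.6 and 91.8 CPM). The part of other cell types in the results was not tested.

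The growth genes spanned a wide range of levels, and several were low. By the median over the 8 libraries per kb of transcript, Grb10 was highest with 39.5 CPM per kb, at the 89.2 percentile of the tested genes. Igf2r followed with 20.2 and Plagl1 with 5.18 CPM per kb. H19 had 1.53, Mest 0.556, Cdkn1c 0.388, Dlk1 0.151, Igf2 0.0987, Peg3 0.0946 and Ndn 0.0816 CPM per kb, the last at the 12.7 percentile. Between neighbours in this order the ranges over libraries overlapped except from Plagl1 to H19 and from H19 to Mest. With exon-union length in place of the longest transcript, Ndn, Igf2 and Peg3 exchanged places and the other 7 kept theirs. For 5 of the 10 (Cdkn1c, Dlk1, Igf2, Peg3 and Ndn) the median level was under 1 CPM, so the count table held little of several genes that the name growth genes would lead one to look for. Exons of other genes cover 64.6% of the exonic bases of Igf2 and 30.7% of those of Cdkn1c. Whether reads in such shared bases were counted was not tested.

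**Figure D1:**
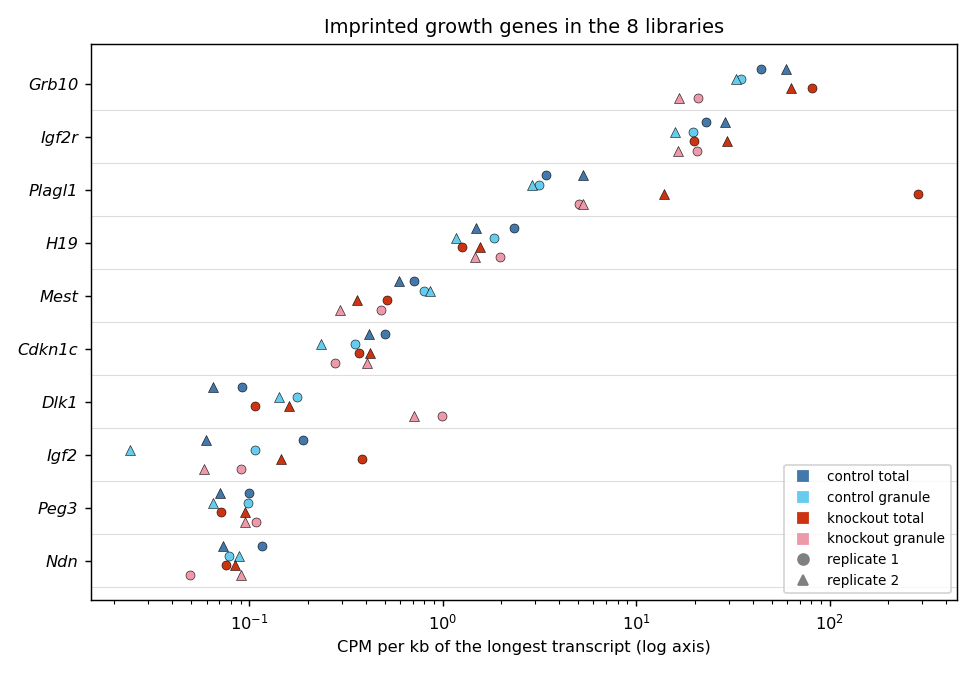
Level of each gene in every library, in CPM per kb of the longest transcript on a log axis, with colour for group and shape for replicate. Grb10 and Igf2r are highest, Plagl1 has a single library far to the right (knockout total replicate 1), and Dlk1 has both knockout granule libraries apart from its other 6.

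The growth factor Igf2 (ENSMUSG00000048583, GRCm38 chr7:142650766-142666816, minus strand) was measured at 0.897 and 0.281 CPM in control total, 0.505 and 0.114 in control granule, 1.80 and 0.686 in knockout total and 0.428 and 0.275 in knockout granule libraries. Replicates lay 1.56- to 4.42-fold apart, and the 2 knockout total libraries were above both knockout granule libraries while the other groups compared overlapped. The granule to total log2 difference in knockout cells was -1.82 (SE 0.83, 95% interval -3.72 to 0.09, edgeR quasi-likelihood test with Benjamini-Hochberg adjustment, adjusted p = 0.162), which did not pass the threshold of 0.05 in this fit. It passed in 2 of 10 alternatives other than leaving out a library. By edgeR it was -1.94 with every gene of at least 1 count kept (adjusted p = 0.00253). With the replicate number as a block and the GC trend removed it was -2.025 (adjusted p = 0.0217). Of all genes, 17% and 28.2% passed in these fits. The difference was -0.97 without knockout total replicate 1 and -2.48 without knockout total replicate 2. These fits leave 1 library in knockout total and are given by size alone. Exons of other genes cover 64.6% of its exonic bases (Igf2os and Gm49394), and with the strand setting of the counting not given in the sources used here, reads of Igf2 and of these neighbours may not have been separated.

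Its clearance receptor, Igf2r (ENSMUSG00000023830, chr17:12682406-12769664, minus strand), stood at 203.4 and 255.2 CPM in control total, 174.3 and 140.4 in control granule, 176 and 262.7 in knockout total and 183.1 and 145.2 in knockout granule libraries. The control granule libraries lay below the control total libraries, and the knockout groups overlapped. The granule to total log2 difference was -0.54 in control cells (SE 0.30, edgeR adjusted p = 0.262) and -0.42 in knockout cells (SE 0.30, adjusted p = 0.363), and neither passed in this fit. The control difference passed in 1 of 11 alternatives other than leaving out a library. It was -0.54 in limma's voom (adjusted p = 0.0494), where 39.3% of all genes passed. The knockout difference passed in 0 of 11. With knockout total replicate 1 left out, which leaves 1 library in that group, the 2 differences were -0.54 and -0.69, given by size alone. The differences between knockout and control were -0.06 (SE 0.30, 95% interval -0.75 to 0.62) in total RNA and 0.06 (SE 0.30, interval -0.63 to 0.75) in the granule fraction on the log2 scale. These intervals bound a genotype difference of Igf2r to less than 1 log2 unit in either fraction, a width that the 2 replicates a group set.

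Grb10 (ENSMUSG00000020176, chr11:11930508-12038683, minus strand) had the highest level per kb of the growth genes and was lower in the granule fraction than in total RNA of knockout cells. Its values were 224 and 299.4 CPM in control total, 175.5 and 166.2 in control granule, 410.2 and 318.7 in knockout total and 105.9 and 84.5 in knockout granule libraries. The group means were 261.7 ± 53.4, 170.8 ± 6.57, 364.5 ± 64.7 and 95.2 ± 15.1 CPM (SD, n = 2). No 2 groups that were compared overlapped, with knockout total highest and knockout granule lowest. The granule to total log2 fold change was -1.94 in knockout cells (SE 0.28, interval -2.59 to -1.29, edgeR adjusted p = 0.00565). It was -0.62 in control cells (SE 0.27, adjusted p = 0.175), which did not pass in this fit. The control change passed at -0.60 in limma's voom (adjusted p = 0.0211). By edgeR it passed at -0.76 with the GC trend removed (adjusted p = 0.0311) and at -0.62 on the control groups alone (adjusted p = 0.0301). Of all genes, 39.3%, 19.9% and 42.4% passed in these fits. With knockout total replicate 1 left out the control change was -0.61. Knockout against control gave 0.48 in total RNA (SE 0.27, adjusted p = 0.3004). In the granule fraction it gave -0.84 (SE 0.28, adjusted p = 0.0928). Neither passed in this fit. The granule difference passed in 4 of 11 alternatives other than leaving out a library. It was -0.83 in the DESeq2 Wald test (adjusted p = 0.0442) and -0.85 in voom (adjusted p = 0.000138). By edgeR it was -0.73 with the GC trend removed (adjusted p = 0.0323) and -0.84 on the granule groups alone (adjusted p = 3.22e-05). Of all genes, 17.8%, 55.2%, 23.6% and 57.3% passed in these fits. The total RNA value was 0.29 (adjusted p = 0.494) without knockout total replicate 1, and 0.76 without knockout total replicate 2, where it passed (adjusted p = 0.0118) as did 47.8% of all genes. The difference between the genotypes' granule to total changes was -1.32 (SE 0.39, interval -2.21 to -0.43, adjusted p = 0.109).

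The fall of Grb10 in knockout cells kept its size when single libraries were left out, while its call did not always hold. Without knockout granule replicate 1 the log2 fold change was -2.19 with an adjusted p of 0.0606 by edgeR, and without knockout granule replicate 2 it was -1.78 with an adjusted p of 0.0884. In these fits 1.47% and 1.22% of all genes passed. Fitted on the knockout groups alone it was -2.02 (edgeR adjusted p = 0.0757), where 0 of all 18141 genes tested passed. With knockout total replicate 1 left out it was -1.75. In that fit the granule difference of knockout against control was -0.86, and the difference between the genotypes' granule to total changes was -1.14. Where an arm is left with 1 library, that library is assumed to vary like those of the other groups.

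Cdkn1c (ENSMUSG00000037664, chr7:143458339-143461050, minus strand), the kinase inhibitor, was at 0.956 and 0.788 CPM in control total, 0.670 and 0.448 in control granule, 0.701 and 0.800 in knockout total and 0.528 and 0.773 in knockout granule libraries. The control granule libraries lay below the control total ones, with a log2 difference of -0.64 (SE 0.39, edgeR adjusted p = 0.311). The other groups compared overlapped. Exons of Gm44732 cover 30.7% of its exonic bases. The sign of its genotype differences turned when the GC trend of each library was removed: the total RNA difference went from -0.21 to 0.57 and the granule difference from 0.22 to -0.01, without passing the test.

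Dlk1 (ENSMUSG00000040856, chr12:109452823-109463336, plus strand) encodes a transmembrane protein with EGF-like repeats, paternally expressed and known for holding back the differentiation of preadipocytes. It rose from total to granule RNA in knockout cells. In the edgeR fit to all 8 libraries, it was the only growth gene called between genotypes in the granule fraction. It was measured at 0.427 and 0.302 CPM in control total, 0.815 and 0.659 in control granule, 0.494 and 0.748 in knockout total and 4.61 and 3.31 in knockout granule libraries. These levels come from 28 to 84 counts in the first 3 groups and from 506 and 325 counts in knockout granule. Both knockout granule libraries stood above the other 6, with means of 3.96 ± 0.918 CPM in knockout granule against 0.737 ± 0.110 in control granule (SD, n = 2).

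The granule to total difference of Dlk1 in knockout cells was 2.67 on the log2 scale (SE 0.39, interval 1.76 to 3.58, edgeR adjusted p = 0.00595), a 6.37-fold higher level. In limma's voom it was 2.68 and did not pass (adjusted p = 0.0866), where 5.69% of all genes passed. Knockout against control in the granule fraction gave 2.42 (SE 0.39, interval 1.53 to 3.32, adjusted p = 0.0127), a 5.36-fold higher level. In control cells the granule libraries were also above the total libraries, with a log2 difference of 1.02 (SE 0.40, adjusted p = 0.129) that did not pass in this fit. By edgeR it passed at 1.24 with the GC trend removed (adjusted p = 0.0334). With a replicate block added to that, it passed at 1.24 as well (adjusted p = 0.0461). Of all genes, 19.9% and 15.8% passed in these fits. With knockout total replicate 1 left out the control difference was 1.04. In total RNA the knockout libraries lay above the control libraries by 0.77 (SE 0.40, adjusted p = 0.258), and the difference between the genotypes' granule to total changes was 1.65 (SE 0.55, interval 0.39 to 2.91, adjusted p = 0.128). Neither passed.

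Both changes of Dlk1 kept their size when single libraries were left out, while their calls did not always hold. The granule to total change in knockout cells was 2.35 (edgeR adjusted p = 0.0640) without knockout granule replicate 1 and 2.60 (adjusted p = 0.0700) when the knockout groups were fitted alone, fits in which 1.47% and 0% of all genes passed. The genotype change in the granule fraction gave adjusted p values of 0.155 and 0.166 without control granule replicates 1 and 2 and of 0.130 and 0.0849 without knockout granule replicates 1 and 2, while its size stayed between 2.12 and 2.63. In the fits without a control granule library 0% of all genes passed in that comparison, and without a knockout granule library 0.201% and 0.433% did. With knockout total replicate 1 left out, which leaves 1 library in that group, the 2 changes were 2.40 and 2.41. The mitochondrial share was also high in both knockout granule libraries. The summed chondrocyte markers, of which 1 of 5 averaged over 1 CPM, were highest there as well (74.3 and 79.9 CPM), and so were the summed fibroblast markers (7736 and 7088 CPM). The fibroblast sum was mostly collagen: Col1a1 stood at 3966 and 3382 CPM there, against 1551 and 1249 in control granule libraries. Vim, a marker on the same list, fell by 1.34 in knockout against control granule RNA (edgeR adjusted p = 0.0269), and Twist1 gave -0.06 (adjusted p = 0.900). Their part in the Dlk1 change was not tested.

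**Figure D2:**
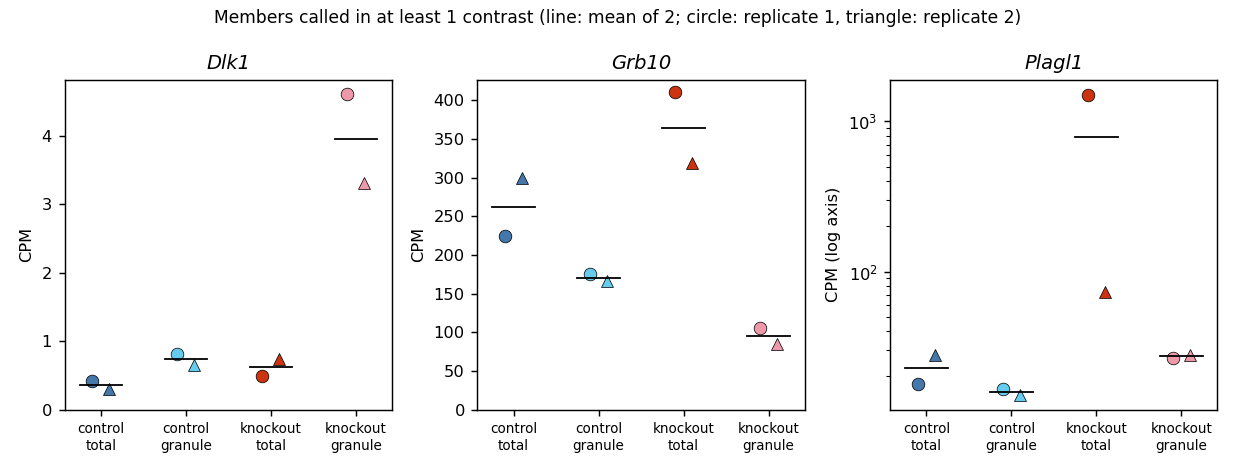
CPM of the 3 growth genes that passed the test in at least 1 comparison, by group, with a line at the mean of 2 libraries (Plagl1 on a log axis). Dlk1 is high only in the 2 knockout granule libraries, at 4.61 and 3.31 CPM, Grb10 is lowest there, and the Plagl1 mean of knockout total rests on a value of 1505 CPM against 72.8 in the other replicate.

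Mest (ENSMUSG00000051855, chr6:30723547-30748465, plus strand), a paternally expressed gene for a protein of the alpha/beta-hydrolase fold, passed in no comparison of the edgeR fit to all 8 libraries. It was at 1.90 and 1.59 CPM in control total, 2.13 and 2.29 in control granule, 1.38 and 0.956 in knockout total and 1.27 and 0.783 in knockout granule libraries. In both fractions the 2 knockout libraries lay below the 2 control libraries. The log2 difference was -0.58 in total RNA (SE 0.37, edgeR adjusted p = 0.346). In the granule fraction it was -1.10 (SE 0.37, interval -1.95 to -0.25, adjusted p = 0.102). Neither passed in this fit. The granule difference passed in 3 of 10 alternatives other than leaving out a library. It was -1.09 in the DESeq2 Wald test (adjusted p = 0.0483) and -1.13 in limma's voom (adjusted p = 0.00106). On the granule groups alone edgeR gave -1.09 (adjusted p = 0.00426). Of all genes, 17.8%, 55.2% and 57.3% passed in these fits. Without knockout total replicate 1, which is in neither granule group but enters the shared spread, the granule difference was -1.11. Exons of Copg2, an imprinted neighbour on the opposite strand, cover 23.1% of the exonic bases of Mest. Copg2 itself fell by 1.13 log2 units in knockout against control granule RNA (SE 0.27, adjusted p = 0.0400). Whether the counting separated reads of the pair was not tested.

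Among the transcription regulators, Plagl1 (ENSMUSG00000019817, chr10:13060504-13131694, plus strand), a zinc finger factor known to act on other imprinted genes and to slow the cell cycle, differed most between replicates. Its values were 17.9 and 28.0 CPM in control total, 16.5 and 15.1 in control granule, 1505 and 72.8 in knockout total and 26.6 and 27.9 in knockout granule libraries. Both knockout total libraries stood above the other 6, but they differed from each other by 20.7-fold, the seventh largest ratio in that direction among the 10261 genes that averaged 5 CPM or more. The group mean of 788.8 ± 1012 CPM (SD, n = 2) therefore describes neither library.

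In knockout cells Plagl1 fell by 4.85 log2 units from total to granule RNA (SE 1.17, interval -7.54 to -2.17, edgeR adjusted p = 0.0285). In limma's voom the log2 fold change was -3.53 and did not pass (adjusted p = 0.0570), where 5.69% of all genes passed. Without knockout total replicate 1, which leaves 1 library in that group, the log2 fold change was -1.43, so the direction was kept at a far smaller size. Leaving out control total replicate 1 or 2, control granule replicate 1 or 2, or knockout granule replicate 1 or 2 kept the log2 fold change between -4.98 and -4.86 and gave adjusted p values of 0.0604, 0.0630, 0.0526, 0.0526, 0.179 and 0.197. In these fits 10.3%, 9.99%, 7.79%, 7.72%, 1.47% and 1.22% of all genes passed. Knockout against control gave 5.10 in total RNA (SE 1.18, interval 2.38 to 7.83, edgeR adjusted p = 0.113), which did not pass in this fit. It passed at 5.14 in the DESeq2 Wald test, and by edgeR at 5.21 with every gene of at least 1 count kept and at 4.56 with the GC trend removed. Of all genes, 12%, 11.2% and 3.94% passed in these fits. The total RNA difference was 1.67 without knockout total replicate 1 and 6.14 without knockout total replicate 2. In the granule fraction the knockout libraries lay above the control libraries by 0.79 (SE 0.999, edgeR adjusted p = 0.648). On the granule groups alone that difference was 0.80 and passed (edgeR adjusted p = 2.87e-05), as did 57.3% of all genes. Without knockout total replicate 1 it was 0.77.

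Peg3 (ENSMUSG00000002265, chr7:6703892-6730431, minus strand), a paternally expressed zinc finger gene, was at 0.868 and 0.615 CPM in control total, 0.854 and 0.562 in control granule, 0.620 and 0.821 in knockout total and 0.937 and 0.824 in knockout granule libraries. The knockout granule libraries lay just above the knockout total libraries, and all other groups compared overlapped. The log2 differences of Peg3 ran from -0.06 to 0.32 in the 4 comparisons of groups, with SE of 0.39.

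Ndn (ENSMUSG00000033585, chr7:62346569-62350262, plus strand), which encodes necdin, a MAGE-family protein known for restraining proliferation in neurons, was the lowest per kb. It had 0.4266 and 0.2697 CPM in control total, 0.291 and 0.325 in control granule, 0.279 and 0.312 in knockout total and 0.182 and 0.336 in knockout granule libraries, from 20 to 37 counts each. Every pair of groups overlapped, and a change of Ndn smaller than about 1 log2 unit was not detectable at this depth, since its intervals reached from -1.37 to 0.95.

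The noncoding H19 (ENSMUSG00000000031, chr7:142575529-142578143, minus strand) was at 5.33 and 3.41 CPM in control total, 4.18 and 2.69 in control granule, 2.88 and 3.57 in knockout total and 4.52 and 3.36 in knockout granule libraries. All 4 comparisons of groups overlapped. Its log2 differences ran from -0.44 to 0.29, with SE of 0.37, and the difference between the genotypes' granule to total changes was 0.63 (SE 0.52, interval -0.57 to 1.84, edgeR adjusted p = 0.456). H19 had the densest GGACT matches among the growth genes and gave no difference that passed the test. A relation between the matches and the differences was not tested. Its exons overlap those of Mir675 and 2 predicted genes over 9.15% of their bases.

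Counted together, between 0 and 3 of the 10 growth genes passed in a comparison, numbers too small to set them apart from all genes. For granule against total RNA in control cells, 10.1% of all tested genes passed and 0 of the 10 growth genes did. There 1 growth gene (Dlk1) had an unadjusted p under 0.05, as did 5683 of all 18952 genes. The DESeq2 Wald test called 0 growth genes (21.3% of all genes) and limma's voom called 2, Igf2r and Grb10 (39.3%). The median log2 difference was -0.44 over the growth genes and -0.06 over all genes. Groups did not overlap for 72.4% of all genes and for 6 of the 10 growth genes, 2 higher and 4 lower in the granule fraction.

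For granule against total RNA in knockout cells, 17.6% of all genes passed and 3 of the 10 did, Dlk1 higher and Grb10 and Plagl1 lower. These 3 had unadjusted p values under 0.05, as did 6510 of all 18952 genes. DESeq2 called the same 3 (26.9% of all genes), while voom called Grb10 alone (5.69%). The medians were -0.20 over the growth genes and 0.04 over all genes. Groups did not overlap for 58% of all genes and for 5 of the 10, with Dlk1 and Peg3 higher and Igf2, Plagl1 and Grb10 lower. With the knockout groups fitted alone, 0 of all genes and so 0 of the 10 passed in edgeR.

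For knockout against control in total RNA, 0.412% of all genes passed and 0 of the 10 did. Plagl1 had an unadjusted p under 0.05, as did 4705 of all 18952 genes. DESeq2 called Plagl1 (12% of all genes) and voom called 0 (0.206%). The medians were -0.05 over the growth genes and 0.02 over all genes, and groups did not overlap for 49.1% of all genes and 4 of the 10 (Dlk1, Plagl1 and Grb10 higher, Mest lower). For knockout against control in the granule fraction, 9.45% of all genes passed and 1 of the 10 did, Dlk1. Dlk1, Mest and Grb10 had unadjusted p values under 0.05, as did 5291 of all 18952 genes. DESeq2 and voom each called these 3, with 17.8% and 55.2% of all genes. In this comparison the medians were 0.20 and 0.08. Groups did not overlap for 77% of all genes and 4 of the 10 (Dlk1 and Plagl1 higher, Mest and Grb10 lower).

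For the difference between the genotypes' granule to total changes, 0.517% of all genes passed and 0 of the 10 did, with medians of 0.05 and 0.09. Dlk1, Plagl1 and Grb10 had unadjusted p values under 0.05, as did 4898 of all 18952 genes. DESeq2 called Plagl1 and Grb10 (14% of all genes), and voom called 0 (3.92%). When knockout total replicate 1 was left out, the numbers of growth genes that passed in these 5 comparisons were 3, 4, 1, 4 and 1, against 40.6%, 34%, 5.52%, 39% and 18.6% of all genes. The comparisons share groups, so their counts are not independent of each other.

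**Figure D3:**
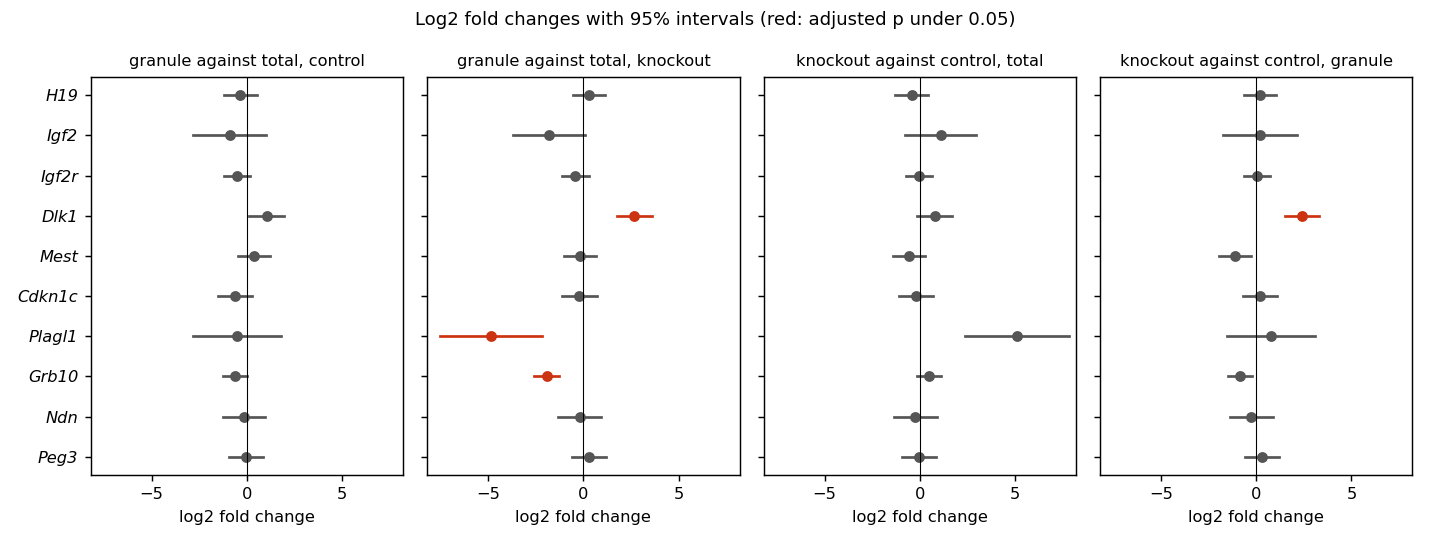
Log2 fold changes of the 10 genes with 95% intervals in the 4 comparisons of groups, red where the adjusted p passed 0.05. Dlk1 passes to the right in knockout granule against total (2.67) and in knockout against control granule (2.42), Grb10 and Plagl1 pass to the left in knockout granule against total, and the Plagl1 intervals are the widest there.

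The called changes of Dlk1, Grb10 and Plagl1 were recomputed under other tests, scalings and filters and with each library left out. Their signs held in all of these fits, with Dlk1 between 2.35 and 2.89 in knockout granule against total and Grb10 between -2.24 and -1.75 when 1 library was left out. The plot of fold changes by setting shows that size was stable for Dlk1 and Grb10 and not for Plagl1, and that which of them passed the threshold varied.

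**Figure D4:**
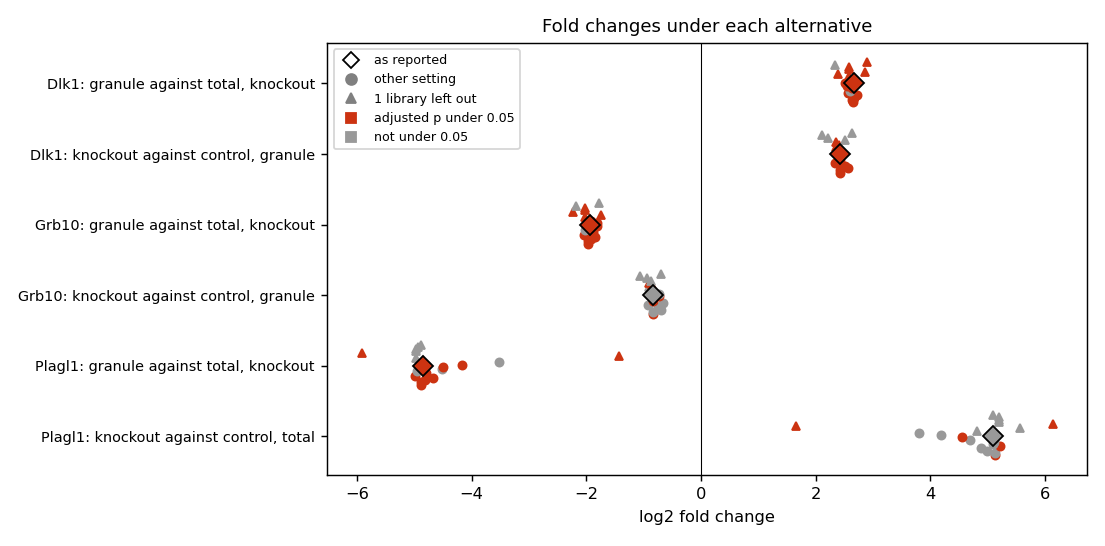
Log2 fold changes of Dlk1, Grb10 and Plagl1 as reported (diamonds), in other settings (circles) and with 1 library left out (triangles), red where the adjusted p is under 0.05. Every point stays on its side of 0. The points of Grb10 in knockout against control granule RNA lie closest to it, between -1.065 and -0.666. Among the Plagl1 points, those without knockout total replicate 1 (-1.43 and 1.67) lie closest.

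The growth genes did not share a single pattern over the 8 libraries. The correlation of log2 CPM was highest between H19 and Peg3 (Pearson's r = 0.835), next between Igf2 and Plagl1 (0.71), and lowest between Dlk1 and Grb10 (-0.842). H19 and Igf2, neighbours that share enhancers in the embryo, had r = 0.3. These values describe 8 libraries that share groups and depth, and 7 of the 10 genes have few counts.

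Among 10003 genes searched, those most like each of the 3 abundant growth genes were found by the same correlation over the 8 libraries. Grb10 was most like Lrp11 (r = 0.993) and Vti1a (0.989), and Igf2r was most like Mfsd1 (0.950) and BC003965 (0.933). Plagl1 was most like Aim2 (0.996) and Snai2 (0.991). Over the 7 libraries other than knockout total replicate 1 these r values were 0.992, 0.994, 0.955, 0.937, 0.967 and 0.934 in the same order. They are the highest of a large search and describe these libraries.

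Other imprinted genes were described from a list of 52, of which 48 had an identifier and 37 were tested. In control cells 1 of them rose and 1 fell from total to granule RNA (10.1% of all genes passed). Ube3a, a ubiquitin ligase gene, rose by 2.54 log2 units (SE 0.50, edgeR adjusted p = 0.0235), from 10.6 and 16.7 to 78.3 and 80.6 CPM, and H13, a signal peptide peptidase gene, fell by 1.08 (SE 0.28, adjusted p = 0.0458). In knockout cells 1 rose and 4 fell of the 37, where 17.6% of all genes passed. Ube3a rose by 2.01 (SE 0.49, adjusted p = 0.0289). Ampd3, which encodes an AMP deaminase, fell by 1.56 (SE 0.36, adjusted p = 0.0243), Mcts2 by 1.49 (SE 0.34, adjusted p = 0.0240) and Mkrn3 by 1.43 (SE 0.40, adjusted p = 0.0440), and Ascl2, which averaged under 1 CPM, also fell. With knockout total replicate 1 left out, which leaves 1 library in that group, Ube3a, Ampd3, Mcts2 and Mkrn3 gave 2.96, -1.05, -0.98 and -1.75.

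Between genotypes, 0 of these 37 passed in total RNA, and 0.412% of all genes did. An unadjusted p under 0.05 was found for 8 of the 37 and for 4705 of all 18952 genes. DESeq2 called 4 (12% of all genes) and voom called 0 (0.206%). In the granule fraction 3 fell, 8.11% of the 37 against 9.45% of all genes. Ampd3 fell by 2.25 (SE 0.36, edgeR adjusted p = 0.0137), from 26.3 and 23.0 to 5.02 and 5.35 CPM, Peg12 by 1.68 (SE 0.30, adjusted p = 0.0169) and Copg2 by the amount given beside Mest. The difference between genotypes in granule to total change passed for 0 of 37 and for 0.517% of all genes. Here 6 of the 37 and 4898 of all 18952 genes had an unadjusted p under 0.05. DESeq2 called 4 (14% of all genes) and voom called 2 (3.92%). The medians of the list in the 5 comparisons were -0.05, -0.03, -0.05, 0.27 and -0.17. Each change given with its value lost its call when any 1 of the granule libraries compared was left out, with edgeR adjusted p values of up to 0.305 (Copg2 without knockout granule replicate 2) and no change of sign. In the fit without knockout total replicate 1, which tested 39 of the list, 19, 13, 2, 16 and 8 passed, against 40.6%, 34%, 5.52%, 39% and 18.6% of all genes.

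The rest of the IGF axis was described from a list of 22 ligands, receptors, binding proteins and regulators, of which 21 were tested. In control cells 1 rose and 2 fell from total to granule RNA, 14.3% of the 21 against 10.1% of all genes. Igf2bp3, an RNA-binding protein named for its binding to Igf2 mRNA, rose by 1.35 (SE 0.26, edgeR adjusted p = 0.0217). Igfbp4, a secreted protein that binds IGFs, fell by 2.80 (SE 0.36, adjusted p = 0.0086), from 119.3 and 125 to 18.5 and 16.6 CPM. Stc2, whose product inhibits the protease that cleaves Igfbp4, fell by 2.46 (SE 0.33, adjusted p = 0.00898).

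In knockout cells 4 rose and 2 fell, 28.6% of the 21 against 17.6% of all genes. The binding protein gene Igfbp6 rose by 3.14 (SE 0.46, edgeR adjusted p = 0.00587), Stc1 by 2.89 (SE 0.46, adjusted p = 0.00749) and the growth factor gene Igf1 by 2.61 (SE 0.37, adjusted p = 0.00533). The receptor gene Igf1r was the fourth. Stc2 fell by 1.61 (SE 0.32, adjusted p = 0.0158) and Igfbp7 by 1.33 (SE 0.33, adjusted p = 0.0327). With knockout total replicate 1 left out, which leaves 1 library in that group, Igfbp6, Stc1, Igf1, Stc2 and Igfbp7 gave 2.63, 3.67, 3.13, -1.49 and -0.98. Igf1 stood at 4.38 to 8.22 CPM in the 4 total libraries, 13.72 and 13.45 in control granule and 44.9 and 32.3 in knockout granule, where its groups did not overlap.

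Against control granule RNA, 3 of the 21 rose in the knockout and 0 fell, 14.3% against 9.45% of all genes. Igfbp4 rose by 3.15 (SE 0.37, edgeR adjusted p = 0.0061), to 205.7 and 106.1 CPM, Stc1 by 2.66 (SE 0.46, adjusted p = 0.0159) and Igf1 by 1.51 (SE 0.36, adjusted p = 0.0392). In total RNA 0 of the 21 passed between genotypes, and 0.412% of all genes did. An unadjusted p under 0.05 was found for 12 of the 21 and for 4705 of all 18952 genes. DESeq2 called 4 (12% of all genes) and voom called 0 (0.206%). The genotype difference in granule to total change passed for 0 of the 21 and for 0.517% of all genes. Here 4 of the 21 and 4898 of all 18952 genes had an unadjusted p under 0.05. DESeq2 called 4 (14% of all genes) and voom called 1 (3.92%). The list's medians in the 5 comparisons were 0.07, -0.23, 0.46, 0.67 and -0.06. Each named change lost its call without at least 1 of the granule libraries compared, with edgeR adjusted p values of up to 0.288 (Igf1 between genotypes without control granule replicate 1) and no change of sign. In the fit without knockout total replicate 1, 11, 8, 3, 10 and 5 of the 21 passed, against the shares of all genes given for that fit beside the other imprinted genes.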

How the data were processed

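Poly(A) RNA was sequenced in 8 libraries, 4 groups of 2 that the labels call biological replicates. Whether these came from separate embryos is not stated, so p-values measure the spread between these samples. The deposited table, named as raw counts, holds counts per Ensembl gene identifier as the authors made them, with 1 column per library. Its column headers give genotype, fraction and replicate number. STAR, DESeq2 and the build GRCm38 (mm10) are named, without roles, in the submitters' processing notes. The counting program, strand setting and annotation release are not given in the sources used here. Of 39017 identifiers, 37693 matched GENCODE M21 (GRCm38), which gave names, coordinates, lengths and transcript sequences. MiR-675 came from RefSeq, and exon overlap from bedtools 2.31.1.

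Counts were fitted in R 4.3.3 with edgeR 4.0.16 (quasi-likelihood F-test, robust, TMM scaling, filterByExpr). A mean for each of the 4 groups over all 8 libraries left 4 residual degrees of freedom. P-values were adjusted over 18952 genes by the Benjamini-Hochberg method, and a gene is said to be called, or to pass, at an adjusted p under 0.05. CPM use TMM-scaled library sizes, and log2 CPM a prior count of 2. The script was tested on simulated data. The members and lists were chosen with earlier results of these data known. All 10 members are named in every comparison. Genes of the 2 lists are named where they were called and averaged 1 CPM or more, at most 3 per direction. For likeness, the 2 genes with the highest r are named for each member of at least 5 CPM. Kcnq1ot1, Snrpn, Snurf and Peg13 are not analysed here.

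Alternatives were DESeq2 1.42.0, limma 3.58.1 voom with library weights, 3 other scalings, 2 other filters, GC trend removal (lowess, span 0.3), a replicate block, a fit of only the groups compared, other prior counts, another length and leaving out each library. A crossed block was added after the data were seen. The labels give no batch.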

Additional observations from a re-analysis of the deposited data

Results flagged for a closer look

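Grb10 was higher in both knockout total libraries than in both control total libraries, and lower in both knockout granule libraries than in both control granule libraries. The opposite directions in the 2 fractions drew attention. With 2 libraries a group, genotypes did not overlap for 49.1% of all genes in total RNA and 77% in the granule fraction. The share of all genes with opposite directions was not counted, so this is not shown to set Grb10 apart. The higher total value was 0.48, and 0.29 without knockout total replicate 1. The difference between the genotype effects was -1.32 on the log2 scale (SE 0.39, edgeR quasi-likelihood test, adjusted p = 0.109), which did not pass the threshold.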

How the results depend on the processing

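Among 505 values of the 10 growth genes under alternatives other than leaving out a library, 457 kept their sign and their side of the threshold, 6 lost the call, 23 gained it and 19 changed sign. The number of growth genes called moved with the test, in the order granule against total in control, the same in knockout, knockout against control in total RNA, the same in the granule fraction, and the difference between genotypes. DESeq2 called 0, 3, 1, 3 and 2 (of all genes 21.3%, 26.9%, 12%, 17.8% and 14%) and voom 2, 1, 0, 3 and 0 (39.3%, 5.69%, 0.206%, 55.2% and 3.92%). GC trend removal called 2, 3, 1, 2 and 0 (19.9%, 32.7%, 3.94%, 23.6% and 8.14%), and a filter of 1 count 0, 4, 1, 1 and 2 (13.2%, 17%, 11.2%, 11.2% and 11.5%). A mean of at least 5 CPM left 3 members to test and called 0, 2, 0, 0 and 0 (11.9%, 17%, 0.653%, 7.92% and 0.448%). Fits of only the groups compared called 1, 0, 0 and 4 (42.4%, 0%, 0% and 57.3%). With 1 library left out the counts ran from 0 to 3, 0 to 4, 0 to 2, 0 to 4 and 0 to 3.

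With a replicate block the counts were 0, 2, 0, 1 and 0 (3.07%, 10%, 0%, 3.54% and 0% of all genes), Plagl1 being lost in knockout granule against total (-4.51, edgeR adjusted p = 0.0651), and with block and GC trend removal together 1, 4, 0, 1 and 0 (15.8%, 28.2%, 1.78%, 19.2% and 3.27%). Correlations of replicate differences between groups of one genotype or one fraction ran from -0.602 to 0.123, so the numbers were not shown to pair samples. A crossed block gave 0, 3 and 0 in the first 3 comparisons. The cause of these differences was not tested.

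Signs changed only for values that did not pass. They were Ndn in the difference between genotypes (0.23 with upper-quartile scaling, 0.15 with library size alone, 0.67 with GC trend removal, 0.70 with the block added) and, with the filter of 1 count, Igf2r (0.002, -0.025 and -0.027 in total, granule and their difference) and Peg3 (0.034 in total RNA). With GC trend removal they were H19 (-0.044 in knockout granule against total, 0.10 between genotypes in total RNA), Igf2r (0.019) and Cdkn1c (0.57, -0.014 and -0.58), and with the block added H19 (-0.048 and 0.10), Igf2r (0.019) and Cdkn1c (0.53 and -0.51). Library size alone moved the median of all genes to -0.19, against -0.06, in control granule against total and to 0.28, against 0.09, in the difference between genotypes, and upper-quartile scaling moved them to -0.29 and 0.33, and that of knockout against control granule RNA from 0.08 to 0.23.

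Leaving out 1 library changed the sign of 37 of 400 values. In control granule against total H19 ran from -0.65 to 0.017, Igf2 from -2.29 to 0.14, Ndn from -0.42 to 0.20 and Peg3 from -0.34 to 0.25. In knockout granule against total H19 ran from -0.009 to 0.49, Mest from -0.65 to 0.13 and Ndn from -0.69 to 0.12. Between genotypes in total RNA Igf2r ran from -0.28 to 0.20, Ndn from -0.47 to 0.13 and Peg3 from -0.21 to 0.23. Between genotypes in granule RNA Cdkn1c ran from -0.10 to 0.47, H19 from -0.15 to 0.48, Igf2 from -0.58 to 1.54, Igf2r from -0.17 to 0.21, Ndn from -0.76 to 0.073 and Peg3 from -0.016 to 0.57. In the difference between genotypes Igf2 ran from -1.96 to 0.36, Igf2r from -0.17 to 0.28, Ndn from -0.53 to 0.24 and Peg3 from -0.038 to 0.55.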
